A study of Mus musculus with 6 samples.

Results

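CXC chemokines are small secreted proteins that steer leukocytes through G protein-coupled receptors, and 9 of their genes were described here across the skin of 6 mice. The 9 rows were taken by gene symbol from a deposited table of 57010 genes, and each symbol matched 1 row. Cxcl1, Cxcl2, Cxcl3 and Cxcl5 were grouped as neutrophil attractants, Cxcl9 and Cxcl10 as interferon-induced, and Cxcl12, Cxcl14 and Cxcl16 as homeostatic.

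The libraries came from wild-type mice, by the genotype label, sampled when an experiment on diabetic ulcers ended. In 3 mice the skin gel carried CST, taken here as the cortistatin of the series title, a peptide related to somatostatin. In the other 3 the gel carried Yoda1, a chemical agonist of the ion channel Piezo1. The sources used here do not give strain, sex, age, dose or the way diabetes was induced. Vehicle-treated or uninjured skin was not analysed here, and every value therefore sets one treatment against the other.

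Neutrophil attractants of this family bind Cxcr2 on neutrophils and are induced within hours by interleukin-1, TNF and microbial products through NF-kappaB. Cxcl9 and Cxcl10 bind Cxcr3 on activated T and NK cells and are induced by interferons. Cxcl12 holds Cxcr4-bearing cells in tissues and is made mainly by stromal and endothelial cells, Cxcl14 is made by resting epithelium, and Cxcl16 is a membrane-bound ligand of Cxcr6 that proteases shed. In wounded skin the first class is known for recruiting the early neutrophil wave.

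The genes lie in 2 stretches of mouse chromosome 5 and at 3 other places, given here by GENCODE M21 on GRCm38. Cxcl5 (90759360 to 90761624), Cxcl3 (90786103 to 90789600), Cxcl1 (90891241 to 90893115) and Cxcl2 (90903871 to 90905938) are on the plus strand of chromosome 5. The platelet chemokine genes Ppbp and Pf4 lie between Cxcl5 and Cxcl3. Cxcl9 (92321347 to 92328079) and Cxcl10 (92346638 to 92348889) are on the minus strand of the same chromosome. Cxcl12 is on chromosome 6 (117168535 to 117181367), Cxcl14 on chromosome 13 (56288643 to 56296551) and Cxcl16 on chromosome 11 (70453983 to 70459984). All 9 are protein-coding.

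The bases just upstream of the start sites are shown for Cxcl1, Cxcl2 and Cxcl3 and for the interferon-induced pair. Except for Cxcl1, added as the neighbour of Cxcl2, these are the genes whose groups did not overlap. The RefSeq windows used here had no entry for Cxcl5 and Cxcl16, which were therefore not searched. The sequences are RefSeq's for GRCm38.p6, read 5′ to 3′ on the gene's strand and ending at the base before the start site. Capitals mark matches, on either strand, to the NF-kappaB consensus or to the interferon-stimulated response element. The consensus was searched as GGG, a purine, any 2 bases, 2 pyrimidines and CC. The response element was searched as GAAA, any 2 bases and GAAA. The windows are chr5:90891125-90891244 (Cxcl1, plus), chr5:90903779-90903898 (Cxcl2, plus), chr5:90785981-90786100 (Cxcl3, plus), chr5:92348890-92349139 (Cxcl10, minus) and chr5:92328080-92328329 (Cxcl9, minus).
Cxcl1: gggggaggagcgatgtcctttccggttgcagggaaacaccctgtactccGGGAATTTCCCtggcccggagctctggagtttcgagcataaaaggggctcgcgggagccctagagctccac
Cxcl2: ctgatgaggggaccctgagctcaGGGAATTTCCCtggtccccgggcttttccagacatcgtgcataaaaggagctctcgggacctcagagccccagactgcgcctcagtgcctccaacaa
Cxcl3: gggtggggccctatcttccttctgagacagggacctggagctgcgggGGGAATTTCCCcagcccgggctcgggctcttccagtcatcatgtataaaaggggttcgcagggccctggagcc
Cxcl10: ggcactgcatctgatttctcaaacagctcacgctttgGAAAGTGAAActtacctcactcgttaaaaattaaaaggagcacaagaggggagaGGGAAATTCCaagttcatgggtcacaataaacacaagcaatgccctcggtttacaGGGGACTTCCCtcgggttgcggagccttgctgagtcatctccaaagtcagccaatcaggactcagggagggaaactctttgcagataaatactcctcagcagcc
Cxcl9: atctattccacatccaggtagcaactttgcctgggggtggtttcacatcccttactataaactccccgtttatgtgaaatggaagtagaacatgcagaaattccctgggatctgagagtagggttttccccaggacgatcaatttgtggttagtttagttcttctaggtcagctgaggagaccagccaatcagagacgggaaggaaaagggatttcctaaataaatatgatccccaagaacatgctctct

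In Cxcl1, Cxcl2 and Cxcl3 the capitals hold the same decamer, GGGAATTTCC, starting 71, 97 and 73 bases upstream of the RefSeq start site. RefSeq and GENCODE place these starts differently: RefSeq has 90891245 for Cxcl1, 90903899 for Cxcl2 and 90786101 for Cxcl3, so the end of the Cxcl2 window lies inside the GENCODE gene, which starts at 90903871. It is 1 form of the NF-kappaB consensus, and a second match to the consensus overlaps it by all but 1 base. The decamer was picked out after these windows had been read; it occurs on either strand in 28 (0.0852%) of the 32851 windows of 250 bases in the RefSeq table, and in 3 of the 7 members with an entry. The NF-kappaB consensus occurs in 7.25% of the windows and in 4 of the 7 members, with matches in Cxcl10 starting 159, 104 and 103 bases upstream, the last 2 overlapping. The response element occurs in 2.98% of windows and in 2 members, Cxcl10 (213 bases upstream) and Cxcl14 (172 bases upstream). The gamma-activated (STAT) site, searched on both strands as TTC, any 3 bases and GAA, occurs in 7.02% of windows and in 1 member, Cxcl14. The 250-base windows of Cxcl9 and Cxcl12 hold none of these motifs as spelled here, and sites that differ by 1 base were not searched. A match describes the sequence, and binding was not measured.

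**Figure D1:**
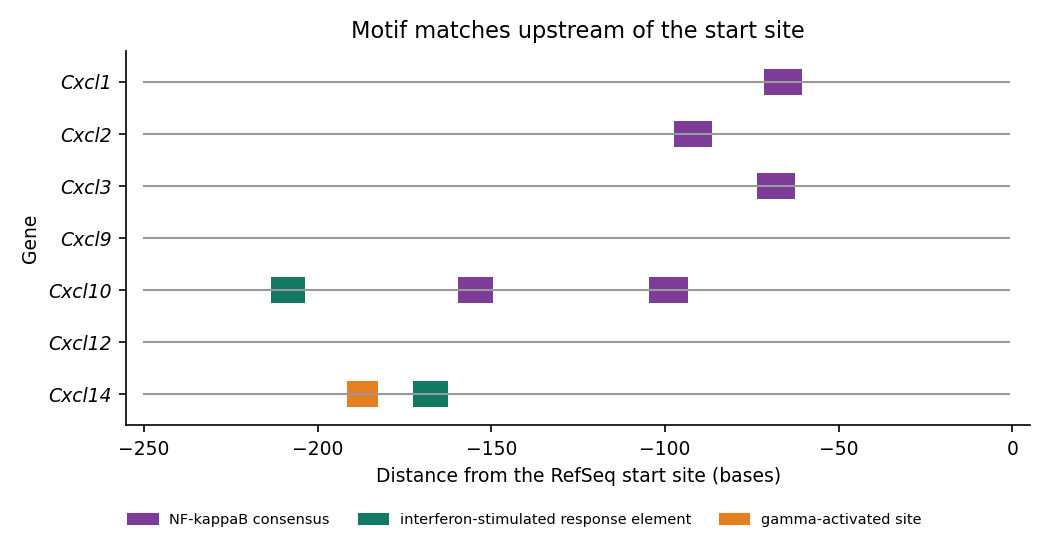
Matches to the NF-kappaB consensus, the interferon-stimulated response element and the gamma-activated (STAT) site in the 250 bases upstream of the RefSeq start site of 7 members (x axis: distance in bases; y axis: gene; each box is a match or 2 overlapping matches). Cxcl1, Cxcl2 and Cxcl3 each carry a match within 97 bases of the start site, and Cxcl10 carries both kinds of element.

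Values are FPKM, fragment counts scaled to gene length and to library depth, as the authors deposited them. The depth behind them was recovered from their steps and ran from 23791352 to 29620526 reads per library. All 9 members were well above the detection limit, from 98 reads (Cxcl9 in CST mouse 1) to 86143 reads (Cxcl2 in CST mouse 1). A pair of libraries stood apart by the share of mitochondrially encoded RNA in all FPKM. It was 6.72% in CST mouse 1 and 7.61% in Yoda1 mouse 3, and 3.25% to 3.81% in the other 4. Some differences are also given without CST mouse 1, without Yoda1 mouse 3 or without both. The labels also call the material keratinocytes; the 9 keratinocyte markers were all tested, with Krt14 between 5835 and 14601 FPKM, but fibroblast, macrophage and skeletal muscle markers were present in every library too. In such bulk tissue, fewer cells of a type and less RNA per cell cannot be told apart.

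In CST skin all 4 neutrophil attractants had higher means than in Yoda1 skin, and both interferon-induced members had lower means. Cxcl2 differed most, at 1248 ± 1210 FPKM in CST and 116.8 ± 78.2 in Yoda1 skin (SD, n = 3 each), and Cxcl9 measured 3.37 ± 0.771 and 7.63 ± 1.15. None of the 9 members passed the threshold of 0.05 on the adjusted p in limma's moderated test on log2(FPKM + 1) over 14588 genes, where 0 genes (0%) passed. At an unadjusted p under 0.05 were 4 of the 9, against 584 genes (4%) of all tested, 3.21% higher and 0.788% lower in CST. These were Cxcl2, Cxcl3, Cxcl9 and Cxcl10, and the same 4 had groups whose values did not overlap, against 6.59% of all genes tested. The median difference over all genes was -0.01. A fit that weights libraries by their scatter called 9.24% of all genes and 4 of the 9 members, Cxcl1, Cxcl2, Cxcl9 and Cxcl12. Its weights were 12.8, 0.657 and 0.193 for Yoda1 mice 1 to 3. The Yoda1 side of these calls thus rested mainly on mouse 1, and the groups of Cxcl1 and Cxcl12 overlapped.

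**Figure D2:**
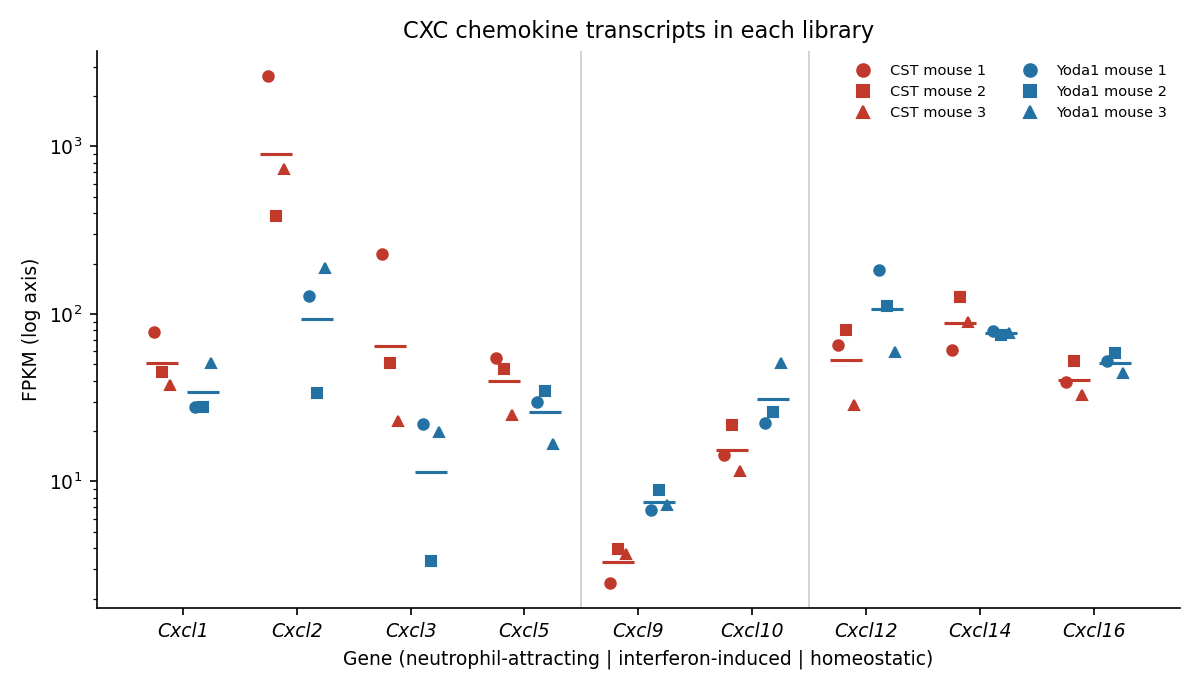
FPKM (log axis) of the 9 chemokine genes in the 6 libraries; points are mice, symbols give the mouse number, short lines are geometric means of 3 mice. Cxcl2 lies above every other member in each CST mouse, and all CST values of Cxcl9 lie below all Yoda1 values.

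Cxcl2, also known as MIP-2, is a strong neutrophil attractant made by macrophages and by neutrophils themselves. Its level was 2630 FPKM in CST mouse 1, 383 in mouse 2 and 729.6 in mouse 3. The Yoda1 mice, in the same order, had 127, 33.9 and 189. All CST values lay above all Yoda1 values, but within each group the highest mouse was several times the lowest. The difference of 3.25 on the log2(FPKM + 1) scale had a 95% interval from 1.37 to 5.13 (SE 0.81, limma adjusted p = 0.561), and 30 of the 14588 genes differed by more. Without CST mouse 1 the difference was 2.48.

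Cxcl3 is the closest relative of Cxcl2 in this set and acts on the same receptor. It measured 229.5 FPKM in CST mouse 1, 51.2 in mouse 2 and 22.9 in mouse 3, against 22.1, 3.34 and 19.6 in Yoda1 mice 1 to 3. The groups did not overlap, but CST mouse 3 and Yoda1 mouse 1 differed by less than counting error, with 95% Poisson intervals of 21.8 to 24.1 and 21.0 to 23.3. The difference was 2.37 (95% interval 0.28 to 4.46, limma adjusted p = 0.984) and was 1.47 without CST mouse 1. With library weights it was 1.22 (limma adjusted p = 0.169). When libraries were scaled to an equal FPKM sum, the Cxcl3 groups overlapped.

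Cxcl1, the KC chemokine of mouse, is made by many stromal and epithelial cells. In order of mouse number it measured 77.5, 45.3 and 37.7 FPKM with CST, against 27.9, 27.8 and 51.2 with Yoda1. Yoda1 mouse 3 stood among the CST values and the other 2 Yoda1 mice below them. The difference of 0.57 had a 95% interval from -0.24 to 1.37 (limma adjusted p = 1.000), and it was 0.27 when CST mouse 1 was left out and came to 0.85 when Yoda1 mouse 3 was. Cxcl5, known as an epithelial product, measured 54.6, 47.1 and 24.9 with CST, against 29.7, 34.8 and 16.8 with Yoda1. Its groups overlapped, with mouse 3 lowest in each group. The difference of 0.61 (95% interval -0.25 to 1.46) was 0.39 without CST mouse 1, 0.94 without CST mouse 3, 0.31 without Yoda1 mouse 3 and 0.09 without both CST mouse 1 and Yoda1 mouse 3.

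The 4 attractants were therefore unequal in size. Cxcl2 was 33.9, 8.46 and 19.3 times Cxcl1 with CST, against 4.56, 1.22 and 3.70 times with Yoda1, so each CST ratio exceeded each Yoda1 ratio. Over the 6 libraries the profiles of Cxcl2 and Cxcl3 differed by a root mean square of 0.781 log2 units after centring. Those of Cxcl1 and Cxcl5 differed by 0.620, and those of Cxcl2 and Cxcl5 by 1.83. By this distance, likeness did not follow the classes throughout. Cxcl5 was nearer to Cxcl16 (0.566) than to Cxcl1, and Cxcl9 was nearer to Cxcl16 (0.405) than to Cxcl10 (0.456). The distance also depends on how far each profile swings, so profiles with small swings lie near each other whatever their direction. Cxcl5 and Cxcl16 differed between the groups in opposite directions (0.61 and -0.33). Cxcl1, Cxcl2 and Cxcl3 are similar in sequence, and the sources used here do not say how reads that fit more than 1 of them were counted, so each single value is uncertain to that extent.

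Cxcl9 is induced chiefly by interferon-gamma. Its level was 2.49, 3.94 and 3.68 FPKM with CST, against 6.71, 8.92 and 7.25 with Yoda1. The groups were separated by more than counting error: the highest CST library (178 reads) had a 95% Poisson interval of 3.38 to 4.56 FPKM, and the lowest Yoda1 library (324 reads) one of 6.0 to 7.48. The difference was -0.99 (95% interval -1.53 to -0.44, SE 0.24, limma adjusted p = 0.537), which stayed between -1.19 and -0.72 over all 18 alternatives, the narrowest relative range of the members whose groups did not overlap.

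Cxcl10 answers to type I interferon as well as to interferon-gamma. Its level was 14.3, 21.9 and 11.6 FPKM with CST, against 22.2, 26.0 and 51.1 with Yoda1. CST mouse 2 and Yoda1 mouse 1 were within counting error of each other (95% Poisson intervals 20.3 to 23.5 and 20.8 to 23.8), and Yoda1 mouse 3 stood apart above. The difference of -0.97 (95% interval -1.80 to -0.13, limma adjusted p = 0.953) was -0.61 without Yoda1 mouse 3 and -0.30 with library weights (limma adjusted p = 0.377). Yoda1 mouse 3, one of the libraries high in mitochondrial transcripts, thus held the highest Cxcl10 and the highest Cxcl2 of its group.

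**Figure D3:**
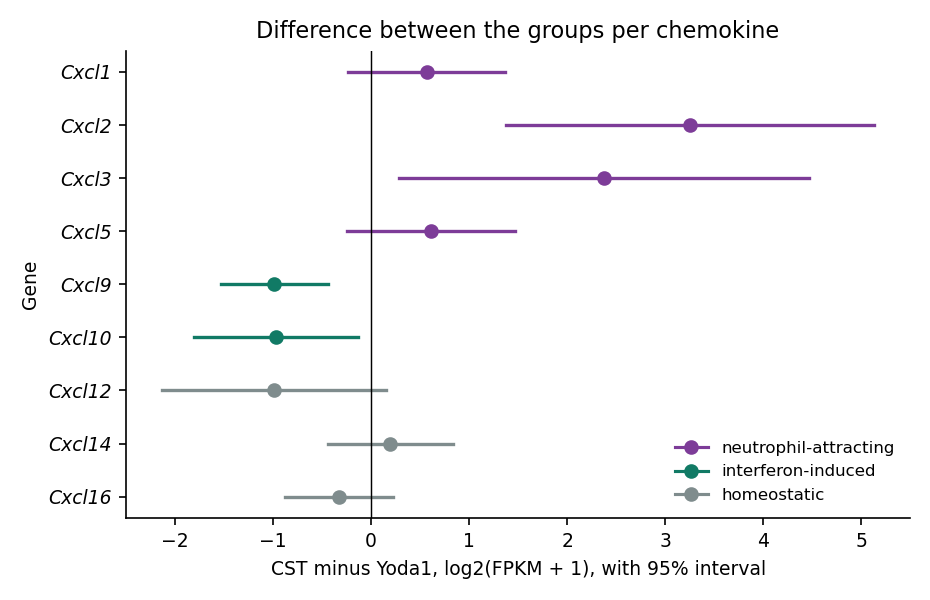
Difference CST minus Yoda1 in log2(FPKM + 1) for each chemokine gene (x axis), with the 95% interval from limma's moderated fit on 3 mice per group. The intervals of Cxcl2 and Cxcl3 lie above 0 and those of Cxcl9 and Cxcl10 below it before adjustment for 14588 genes; none passed after adjustment.

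The homeostatic members overlapped between the groups in all 3 genes. Cxcl12, also called SDF-1, measured 65.2, 79.7 and 28.7 FPKM with CST, against 183.9, 111.2 and 59.4 with Yoda1. Yoda1 mouse 3 lay among the CST values, and the other 2 Yoda1 mice lay above them. The difference of -0.99 was as large as those of Cxcl9 and Cxcl10, but its 95% interval ran from -2.13 to 0.15 (limma adjusted p = 1.000), and leaving out CST mouse 3 gave -0.56, leaving out Yoda1 mouse 1 gave -0.60, and leaving out both CST mouse 1 and Yoda1 mouse 3 gave -1.56.

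Cxcl14, an epithelial chemokine, was nearly level across the Yoda1 mice, at 79.0, 74.8 and 77.4 FPKM. With CST it measured 61.2, 125.7 and 89.5, on both sides of the Yoda1 range. Its difference of 0.20 (95% interval -0.44 to 0.83) turned to -0.057 without CST mouse 2 and was 0.46 without CST mouse 1. Cxcl16, shed by the proteases Adam10 and Adam17, measured 39.2, 52.3 and 32.6 with CST, against 52.5, 58.2 and 44.1 with Yoda1, a difference of -0.33 (95% interval -0.88 to 0.22). It was -0.51 without CST mouse 2 and -0.18 without CST mouse 3. Adam10 and Adam17 overlapped between the groups, as did the other 3 proteases of the list (Dpp4, Mmp8 and Mmp9).

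The order of the levels differed between the groups. In CST skin the means ran from Cxcl2 (1248) through Cxcl3 (101), Cxcl14 (92.2), Cxcl12 (57.9), Cxcl1 (53.5), Cxcl5 (42.2) and Cxcl16 (41.4) to Cxcl10 (15.9) and Cxcl9 (3.37 FPKM). Cxcl2 at the top and Cxcl10 and Cxcl9 at the bottom were separated from their neighbours in all 3 mice, and each pair of neighbours between Cxcl3 and Cxcl16 overlapped. In Yoda1 skin Cxcl12 (118) and Cxcl2 (116.8) came first, then Cxcl14 (77.1), Cxcl16 (51.6), Cxcl1 (35.6), Cxcl10 (33.1), Cxcl5 (27.1), Cxcl3 (15.0) and Cxcl9 (7.63 FPKM). There only Cxcl14 and Cxcl16 were neighbours whose 3 values did not overlap. Cxcl2 took 82.9%, 47.3% and 74.4% of the summed FPKM of the 9 genes with CST, against 23.1%, 8.95% and 36.7% with Yoda1, and Cxcl12 took 2.05% to 9.84% and 11.5% to 33.3%.

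The classes were set against each other within each library, as the mean log2(FPKM + 1) of the 4 neutrophil attractants minus that of the 2 interferon-induced members. This gap was 4.96, 2.94 and 3.08 with CST, against 1.59, 0.28 and 1.08 with Yoda1, so that every CST library had the wider gap. The group means were 3.66 ± 1.12 and 0.98 ± 0.66 (SD, n = 3), 2.68 apart. No test was made of this score over chosen members. Without CST mouse 1 the gap between the groups was 2.03, and without both CST mouse 1 and Yoda1 mouse 3 it was 2.08. The homeostatic class measured 5.78, 6.35 and 5.49 with CST, against 6.53, 6.31 and 5.90 with Yoda1, and overlapped.

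**Figure D4:**
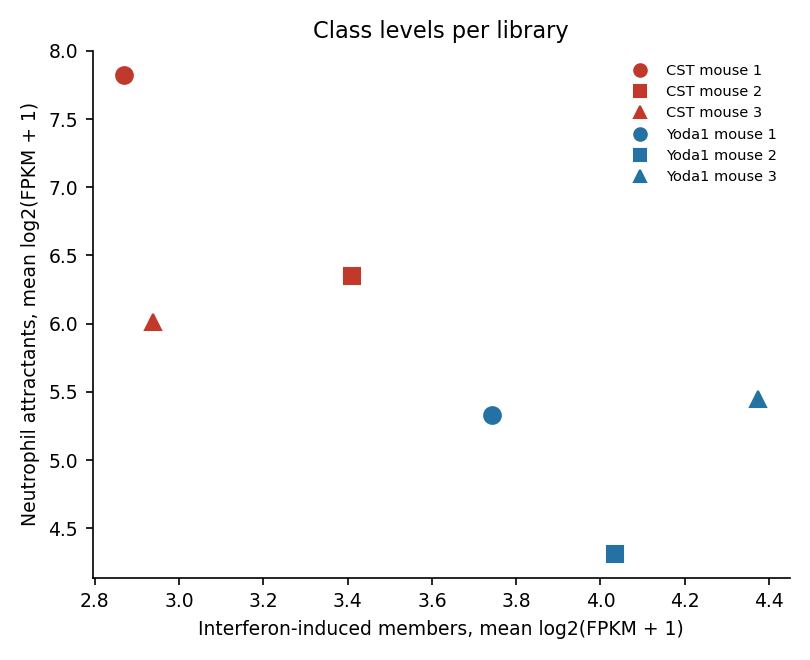
Mean log2(FPKM + 1) of Cxcl9 and Cxcl10 (x axis) and of Cxcl1, Cxcl2, Cxcl3 and Cxcl5 (y axis) in each library, 1 point per mouse; the axes do not start at 0. The CST mice lie at upper left and the Yoda1 mice at lower right, with no overlap on either axis.

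Of the 6 other CXC ligand genes 3 were high enough to test. Ppbp, the platelet basic protein gene beside Cxcl5, measured 91.8, 30.0 and 6.49 FPKM with CST, against 9.76, 8.25 and 2.06 with Yoda1, a difference of 2.05 with overlapping groups (limma adjusted p = 1.000). Pf4, the adjacent gene for platelet factor 4, was at 389.7, 403.8 and 206.6 with CST, against 463.9, 461.0 and 66.5 with Yoda1, a difference of 0.39. Cxcl13, which attracts B cells, differed by -0.08. Cxcl11, the third Cxcr3 ligand, annotated as a polymorphic pseudogene in GENCODE M21, was at most 0.188 FPKM in any library, and Cxcl15 and Cxcl17 were listed at 0 in some libraries.

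Among the 8 receptor genes 5 were tested and none passed, with a median difference of -0.12. Cxcr2, the receptor of the neutrophil attractants, measured 30.7, 22.9 and 8.94 FPKM with CST, against 10.2, 6.08 and 15.9 with Yoda1, and the groups overlapped. Cxcr3, which binds Cxcl9 and Cxcl10, stood at 0.695, 0.855 and 0.736 with CST, against 1.74, 1.79 and 0.194 with Yoda1. Cxcr4, the receptor of Cxcl12, differed by 0.51, and its scavenger receptor gene Ackr3 by -0.21. The groups overlapped in all 5 tested receptors.

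The NF-kappaB inducer and feedback genes were tested in 13 of 15 cases; 0 passed, 11 were higher and 2 lower in CST by their means, with a median of 0.46. In 4 of the 13 the CST values all lay above the Yoda1 values, against 4.52% of all genes. These 4 also had the smallest unadjusted p. Il1b, a main inducer of the attractants, measured 1046, 288.4 and 280.4 FPKM with CST, against 115.6, 42.9 and 91.5 with Yoda1. Tnf stood at 84.1, 11.4 and 25.8 against 4.397, 1.39 and 5.501, with CST mouse 1 highest and Yoda1 mouse 2 lowest, as for Cxcl2. The inhibitor gene Nfkbia differed by 0.89 and Zfp36, which encodes a decay factor for such mRNAs, by 0.80. Il17a was above 0 in 1 library only, at 0.0354 FPKM in CST mouse 1.

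The interferon response list had 11 of 12 genes tested; 0 passed, all 11 were lower in CST by their means, with a median of -0.75. In 7 of them all CST values lay below all Yoda1 values, against 2.08% of all genes tested. The 4 with the smallest unadjusted p were Ifit3 (-1.34), Ifit1 (-1.08), Gbp2 (-0.82) and Irf7 (-1.23), interferon-induced effectors and a transcription factor. Ifng, the gene of interferon-gamma, was at most 0.215 FPKM and at 0 in 3 libraries. Both lists were written with earlier results of these data known and are no independent support.

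Likeness of the profile over the 6 libraries was measured as the root mean square difference between centred log2(FPKM + 1) values, among 13080 named genes. Each class was taken as the mean profile of its members, so a gene near that mean need not be near each member. The neutrophil attractants were nearest to Ankrd33b (0.186), Samsn1 (0.245), Slpi (0.248), Mrgpra2b (0.267) and Arg2 (0.271). Slpi encodes a secreted inhibitor of leukocyte proteases and Arg2 an arginase. Slpi stood at 314.1, 134.6 and 92.8 FPKM with CST, against 78.9, 33.2 and 98.9 with Yoda1. The interferon-induced pair was nearest to Ifit3b (0.0829), Mx2 (0.157), Ifit1 (0.170), Phf11d (0.194) and Ifit3 (0.215), all known as interferon-induced. The homeostatic class was nearest to Tcaf1 (0.0563), Glis3 (0.0811), Parp3 (0.0900), Vav2 (0.0904) and Gng11 (0.0906); its profile spanned only 1.04 log2 units, against 3.51 for the attractants and 1.504 for the interferon-induced pair, so small distances are easier to reach.

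In the deposited KEGG annotation all 9 members belong to the chemokine signalling pathway. The IL-17 and TNF signalling terms each hold 5, the 4 attractants and Cxcl10. Cxcl9 and the 3 homeostatic members are in neither.

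Markers of other cell types followed some members across the libraries. The 13 neutrophil markers, of which 9 were tested, summed to 11410, 1934 and 1878 FPKM with CST, against 1636, 753.8 and 4153 with Yoda1; S100a9 and S100a8 led the sum, and Ly6g was at 0 in 1 library. None of the 9 passed the adjusted test, all 9 were higher in CST by their means, with a median of 1.00, and in 4 (Retnlg, Hdc, Il1r2 and Trem1) the CST values all lay above the Yoda1 values, against 4.52% of all genes. CST mouse 1 was highest and Yoda1 mouse 2 lowest, as for Cxcl2 and Cxcl3, whereas Yoda1 mouse 3 lay above CST mice 2 and 3 in this sum and below them in Cxcl2. In Yoda1 mouse 3 most of the sum was S100a9 (2539 FPKM) and S100a8 (1487 FPKM). By the mean log2(FPKM + 1) of the tested markers the libraries stood at 7.40, 5.96 and 5.31 in CST and 5.21, 4.19 and 5.38 in Yoda1. The part of neutrophil content in the differences of the attractants was not tested.

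The 10 macrophage markers summed to 1484 to 2038 FPKM in CST and to 4394, 5200 and 1446 in Yoda1 mice 1 to 3, and the 8 fibroblast markers to 3881 to 6275 and to 11690, 10390 and 3687. Yoda1 mouse 3 was thus the lowest of its group in both lists and in Cxcl12, but the highest in Cxcl10. The 10 T and NK cell markers summed to 47.6 to 72.5 FPKM in CST and 69.3 to 79.5 in Yoda1 skin, with Trbc2 the largest part. By the mean log2(FPKM + 1) of the 8 tested markers, CST mice 1 to 3 stood at 2.00, 2.51 and 2.36. Yoda1 mice 1 to 3 stood at 2.81, 2.84 and 1.93, so Yoda1 mouse 3 was lowest of all libraries. The 7 endothelial markers summed to 81.8 to 168.8 FPKM in CST and 84.4 to 172.1 in Yoda1 skin. The 9 keratinocyte markers summed to 18480 to 24450 and to 13730, 13580 and 33390. Their part in the differences of Cxcl9, Cxcl10 and Cxcl12 was not tested. The 8 skeletal muscle markers summed to 4947 to 9099 FPKM in CST and 78.0 to 3391 in Yoda1 skin. In all 8 the CST values lay above the Yoda1 values, against 4.52% of all genes, though none passed the adjusted test. The part of muscle in the chemokine differences was not tested.

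**Figure D5:**
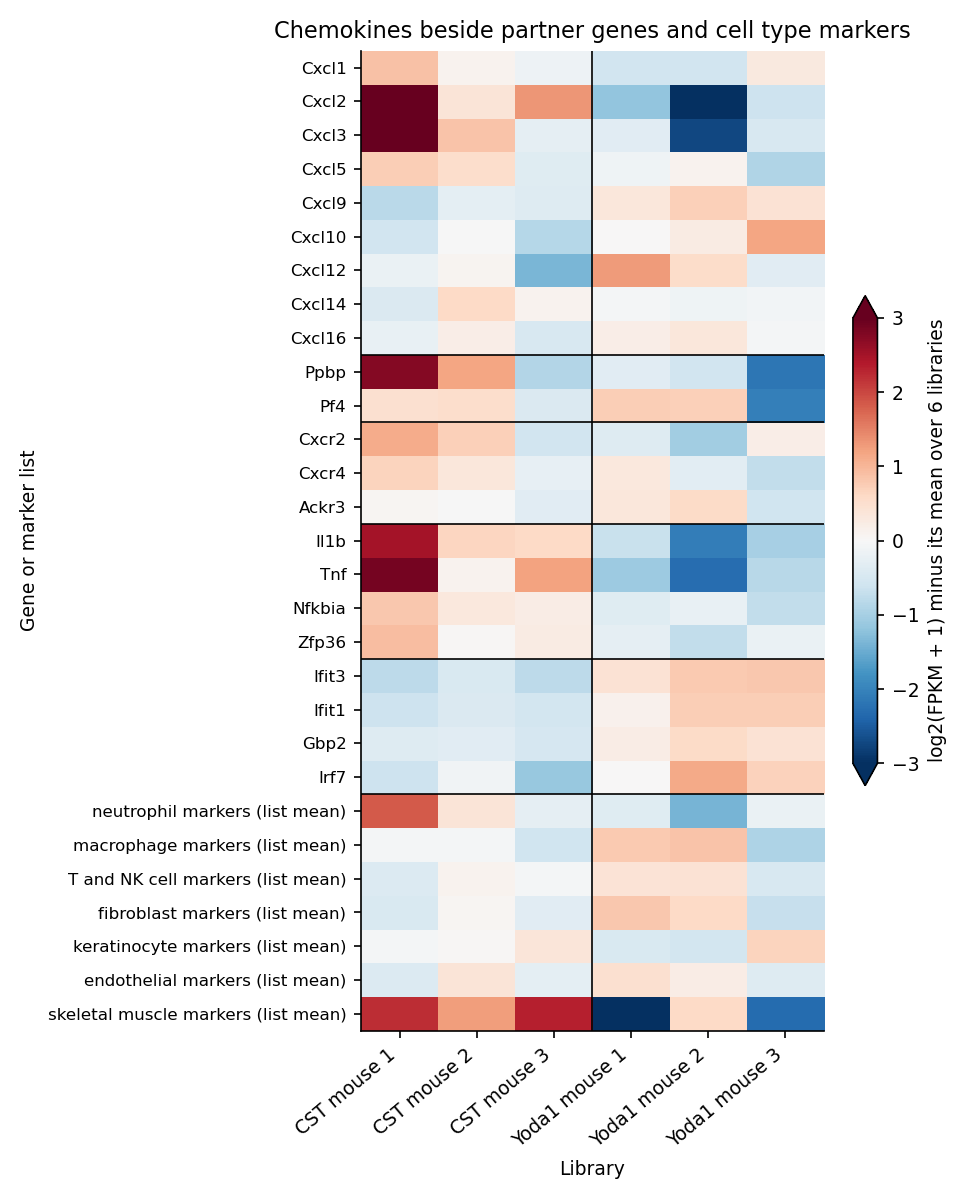
log2(FPKM + 1) of each gene, or mean over the tested markers of a list, minus its mean over the 6 libraries (colour, saturated beyond 3 log2 units); columns are libraries, and lines part members, platelet chemokines, receptors, NF-kappaB genes, interferon genes and marker lists. Cxcl2 and Cxcl3 share with Il1b, Tnf and the neutrophil markers a maximum in CST mouse 1 and a minimum in Yoda1 mouse 2.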

How the data were processed

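The authors deposited 1 table of FPKM values for 6 skin libraries. Builds listed in the submitters' processing notes are GRCm38 and mm10. The sources used here name no aligner, counter or strand setting. Only 2.78% of matched gene identifiers had the start and end of GENCODE M21, so deposited positions were not used. Depths were recovered from the steps of the values, and all 30697 genes above 0 then gave whole reads within 0.001 reads; Poisson intervals from these reads cover counting error only.

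The test was limma 3.58.1 in R 4.3.3 (trended eBayes, two-sided, Benjamini-Hochberg) on log2(FPKM + 1) for 14588 genes averaging 1 FPKM or more, a scale that understates differences of low genes. On 1 simulated set of counts, with the same scatter setting for every gene, the fit called more unchanged genes than the adjusted threshold allows. The rate of such calls in the real libraries was not tested. Calls made under the alternatives may also be too many, which was not tested. The members and lists were chosen with earlier results of these data known. Members were all named; of lists over 8 genes, the 4 genes with the smallest p; of marker lists, at most the 3 with the highest mean. Genes of other lists could be named, as could the 5 genes most like each class. Ly6g, Hdc, Il1r2 and Trem1, outside that rule, were named after their values were seen. Alternatives covered pseudocount, filter, scaling, variance model, recovered reads, replicate block and each library left out. Mice of a group are labelled as separate animals.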

Additional observations from a re-analysis of the deposited data

How the results depend on the processing

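In 18 alternatives the direction of each member stayed as reported, except for Cxcl14, which turned to -0.057 without CST mouse 2. Leaving out 1 mouse gave 0 to 136 called genes, 0 called members each time, 4 to 7 members whose groups did not overlap, and a gap between the classes of 2.03 to 3.03. The 136 genes came without Yoda1 mouse 2 and 8 without CST mouse 2. In 5 members the groups did not overlap without CST mouse 1, 2 or 3, where 19.3%, 12.8% and 10.2% of all genes did not. The 7 members came without Yoda1 mouse 3, where 28.1% of all genes did not overlap. The 4 members came without Yoda1 mouse 1 or mouse 2, where the share over all genes was not computed. Leaving out both CST mouse 1 and Yoda1 mouse 3 was chosen after seeing the data. There the groups did not overlap in 8 members, against 45.3% of all genes. Library weights (0.193 to 12.8) called 1348 genes (9.24%) and 4 members, Cxcl1 (0.67), Cxcl2 (2.11), Cxcl9 (-0.72) and Cxcl12 (-1.49). Cxcl3 (1.22) and Cxcl10 (-0.30) were not called there. Yoda1 mice 1 to 3 had weights of 12.8, 0.657 and 0.193, so the Yoda1 level in this fit was mainly that of mouse 1. The cause of the calls was not tested. Cxcl14 was 0.46 without CST mouse 1 and Yoda1 mouse 3. Deviations from the group means correlated by -0.08, 0.21 and -0.20 between mice of the same number. These are too few to settle whether the number paired the mice. The replicate block called 0 genes and 0 members. At an unadjusted limma p under 0.05 it had 680 genes and 6 members, against 584 and 4 without it. Cxcl2 had the lowest limma adjusted p of the members with the block, at 0.134, against 0.561 without it. Limma-voom on recovered reads called 0 genes, with 585 at an unadjusted p under 0.05.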
